A study of Drosophila melanogaster with 18 samples.

Results

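The genes of the fly circadian clock and Usp8 were followed through an experiment on ethanol vapor in whole heads of Drosophila melanogaster. The members were named from their known roles: the core clock genes per, tim, Clk, cyc, vri, Pdp1, cwo and cry, and the deubiquitinase gene Usp8, with each probe set annotated to exactly 1 of these symbols. This gave 9 genes and 12 probe sets, out of 10844 genes that had a probe set of a single symbol and 14010 probe sets in all. The rule itself used no measured value, but the members were chosen with earlier results of these data known.

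In the fly clock, the transcription factors CLOCK (Clk) and CYCLE (cyc) bind together to E-box elements and activate per, tim, vri, Pdp1 and cwo. PER and TIM then return to the nucleus and inhibit CLOCK and CYCLE, VRI represses and PDP1 activates Clk, and CWO represses the E-box genes. In heads kept in light and dark cycles, the per, tim and vri transcripts are known to be high around early night and the Clk transcript around dawn, while cyc RNA does not cycle. Cryptochrome (cry) is a blue-light receptor that leads to TIM degradation, and USP8 removes ubiquitin from proteins and has been reported to act on CLOCK in flies.

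RNA was measured on 18 one-colour Affymetrix oligonucleotide arrays, 6 biological replicates in each of 3 groups. All flies were of the wild-type strain Canton-S and 2 to 5 days old, and were kept at 25 °C with 12 h of light and 12 h of dark a day. Each sample pooled about 60 heads. Single-exposure flies received 50 min of humidified air and then a single 40 min period in 50% ethanol vapor. The five-exposure group had the same air period and then 5 of these ethanol periods. Naive flies received the air period only. Naive and single-exposure flies were flash frozen straight after treatment, and the labels do not say when the five-exposure flies were frozen. The sources used here do not state the flies' sex, the pause between exposures or the hour of collection, and no air-only group of matched duration was analysed here. The number of exposures, the time elapsed since the start of treatment and the hour of collection therefore cannot be told apart for these genes. Codes in the sample titles also run consecutively by group, and the labels do not say what they mean. If they follow the order of the arrays, that order and the group cannot be told apart.

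Values are the authors' intensities, on a linear scale already normalized between arrays, and the 18 array medians lay between 125.4 and 129.3. Folds come from 1 linear model of the log2 intensities of all 18 arrays (limma), and a probe set is called when its Benjamini-Hochberg adjusted p over all 9317 probe sets tested is under 0.05. Of the 12 member probe sets, 11 passed the filter on low values. The probe set left out was the third for tim (151484_i_at), which lay between 2.08 and 17.2 on all 18 arrays, below the floor of 57.8. Markers of photoreceptors, glia, neurons, fat body and muscle were each among the probe sets that passed the filter. The probe sets of the neuronal gene elav and the glial gene nrv2 did not pass it. Several other markers had no probe set of a single symbol. In bulk RNA, a change in the number of cells that express a gene and a change in RNA per cell cannot be told apart. The mean correlation of an array with the others of its group was 0.982 for naive replicate 5, the lowest of the 18, and 0.988 to 0.992 for the rest.

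The first comparison asks how the clock transcripts stood directly after 1 ethanol exposure. In single-exposure heads Usp8, vri and tim were higher and Clk and cwo were lower than in naive heads, while per, Pdp1, cyc and cry did not pass the test. Of the 11 member probe sets 5 were called (45.5%), 3 higher and 2 lower. Of all probe sets tested, 4.42% were called in this comparison, 2.57% higher and 1.86% lower. The median absolute log2 fold was 0.23 for the 11 member probe sets and 0.05 for all probe sets tested. Because the members were chosen with earlier results known, these contrasts are a description and no test of the members as a set.

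Usp8 (probe set 141593_at) had intensities of 148.0, 169.6 and 259.8 (lowest, median and highest) on the single-exposure arrays, against 92.7, 98.2 and 129.4 on the naive arrays. All 6 single-exposure arrays lay above all 6 naive arrays, and single-exposure replicates 1 and 3 were the highest, at 239.6 and 259.8. The means were 191.1 ± 46.8 after 1 exposure and 101.9 ± 13.8 in naive heads (SD, n = 6 each). The fitted fold was 1.84 (95% interval 1.55 to 2.19, adjusted p = 4.1e-05), the 20th highest of the 9317 probe sets.

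vri (143869_at), a bZIP repressor of Clk, had 210.0, 245.7 and 262.9 on the single-exposure arrays (lowest, median and highest), against 173.6, 196.7 and 207.8 on the naive arrays. The groups did not overlap, and the highest value of 262.9 was shared by single-exposure replicates 1 and 3. The mean was 243.6 ± 20 after 1 exposure and 194.6 ± 14.5 in naive heads (SD, n = 6 each), a fold of 1.25 (1.15 to 1.36, adjusted p = 0.00087).

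tim was called at 1 of its 2 tested probe sets. At 142154_at it had 231.0, 266.6 and 363.3 after 1 exposure (lowest, median and highest), against 198.7, 218.5 and 243.5 in naive heads. Of the 6 single-exposure arrays, 4 lay above all naive arrays, and replicates 1 and 3 were again the highest, at 363.3 and 341.0. The fold was 1.29 (1.14 to 1.47, adjusted p = 0.016). This call was lost when no filter on low values was applied and more probe sets were tested (adjusted p = 0.0644). At 151485_s_at tim had 78.9, 88.9 and 131.2 after 1 exposure, against 70.3, 81.9 and 88.5 in naive heads. These groups overlapped, and the fold of 1.17 (1.02 to 1.34) was not called (adjusted p = 0.255). The naive mean log2 of this probe set, 6.33, was under the cut of 6.42 for the filter on low values. The changes at the 2 tim probe sets differed by 0.14 on the log2 scale, which did not pass the test (exact permutation test, p = 0.342, two-sided, adjusted p = 0.513 over 6 such tests).

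per (143300_at), the partner of tim, had 181.2, 195.0 and 214.3 on the single-exposure arrays, against 170.7, 177.6 and 189.5 on the naive arrays. Of the 6 single-exposure arrays, 5 lay above all naive arrays, but the fold of 1.11 (1.04 to 1.19) was not called (adjusted p = 0.0897). It passed the threshold in 1 of the alternative settings, without single-exposure replicate 5 (adjusted p = 0.0448).

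Clk (143970_at) had 71.1, 81.6 and 86.8 after 1 exposure, against 95.3, 106.5 and 119.2 in naive heads. Every single-exposure array lay below every naive array. The mean log2 after 1 exposure, 6.32, was under the cut of 6.42 for the filter on low values. The probe set passed this filter through its naive (6.73) and five-exposure arrays (6.67), which limits its calls and counts here and below. The mean was 80.2 ± 6.42 after 1 exposure and 106.3 ± 8.70 in naive heads (SD, n = 6 each), a fold of 0.755 (0.690 to 0.826, adjusted p = 0.000189), the 41st lowest of the 9317. Non-overlapping groups were thus seen for Usp8, vri and Clk, which is 3 of the 11 member probe sets, where 3.01% of all probe sets tested showed this.

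cwo was the E-box gene that moved opposite to tim and vri. At 151642_at it had 187.7, 206.1 and 228.7 after 1 exposure, against 224.2, 262.7 and 278.5 in naive heads. There 5 single-exposure arrays lay below all naive arrays, and only single-exposure replicate 5 lay above the lowest naive array, replicate 5. The fold was 0.795 (0.717 to 0.882, adjusted p = 0.00673). The second cwo probe set, 142602_at, had 161.6, 170.3 and 183.5 after 1 exposure, against 172.7, 198.2 and 204.3 in naive heads, and its fold of 0.895 (0.834 to 0.961) was not called (adjusted p = 0.0733). It was called without naive replicate 2 (adjusted p = 0.042) or without naive replicate 4 (adjusted p = 0.0229). The 2 cwo probe sets differed in their change by -0.17 (log2), which did not pass the test (exact permutation test, p = 0.11, adjusted p = 0.331 over the 6 tests).

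The activator of Clk, Pdp1 (153055_at), had 191.4, 226.2 and 247.3 after 1 exposure, against 188.6, 206.7 and 228.4 in naive heads, and its fold was 1.08 (0.983 to 1.18, adjusted p = 0.476). The partner of Clk, cyc (142342_at), had 274.5, 287.2 and 318.8 after 1 exposure, against 258.7, 289.1 and 306.0 in naive heads. cry (152673_at) had 548.0, 568.1 and 583.4 after 1 exposure, against 543.0, 567.9 and 611.5 in naive heads. All 3 genes overlapped between the groups. The fold of cyc was 1.01 (0.941 to 1.09, adjusted p = 0.917) and that of cry 0.989 (0.931 to 1.05, adjusted p = 0.923).

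**Figure D1:**
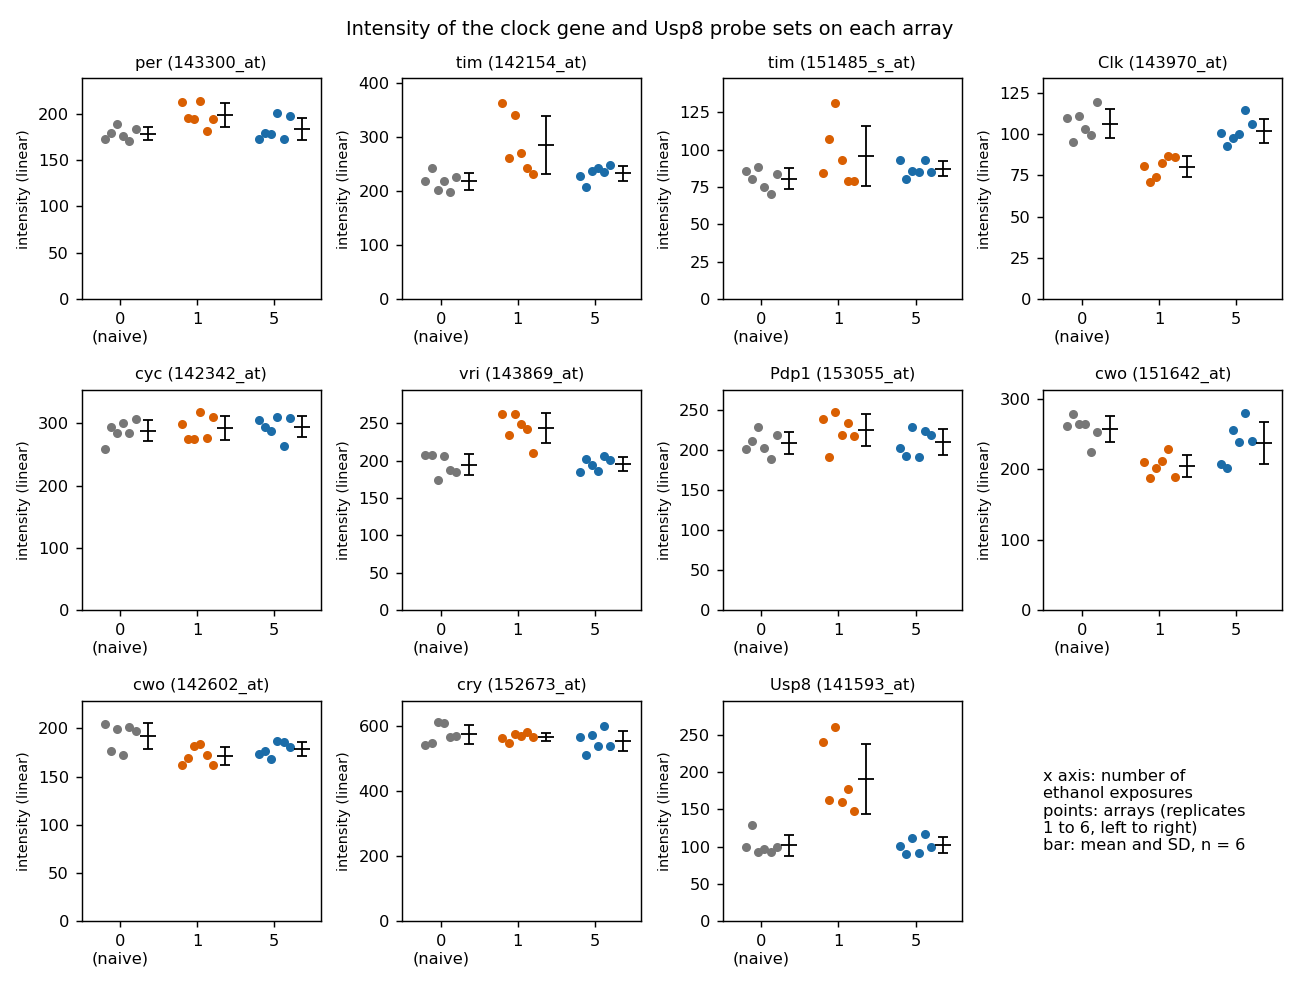
Intensity (linear scale, axes from 0) of the 11 member probe sets that passed the filter, by number of ethanol exposures; each point is 1 array, and the bar beside each group is its mean and SD (n = 6). The single-exposure arrays of Usp8 (148.0 to 259.8) and vri (210.0 to 262.9) lie above all naive arrays and those of Clk (71.1 to 86.8) below them, while the five-exposure arrays overlap the naive arrays in every panel.

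The same genes were then compared between heads after 5 exposures and naive heads. None of the 11 member probe sets was called, and none had an unadjusted p under 0.05 in limma, where 6.33% of all probe sets tested were called (2.48% higher and 3.85% lower). Groups overlapped for all 11, where 3.66% of all probe sets tested did not overlap. Both this comparison and the first use the naive arrays, so their values are set side by side and are not independent. The median absolute log2 fold of the members was 0.05, as it was for all probe sets tested, and member log2 folds lay between -0.12 and 0.12.

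Usp8 had 90.2, 100.7 and 116.7 on the five-exposure arrays (lowest, median and highest), against 92.7, 98.2 and 129.4 on the naive arrays. Both means were 101.9, with an SD of 10.4 after 5 exposures and 13.8 in naive heads (n = 6 each), and the fold was 1 (0.845 to 1.19, adjusted p = 0.992). vri had 184.9, 196.9 and 206.3 after 5 exposures, against 173.6, 196.7 and 207.8 in naive heads, with a fold of 1.01 (0.927 to 1.09, adjusted p = 0.969). Clk had 92.6, 100.4 and 114.4 after 5 exposures, against 95.3, 106.5 and 119.2 in naive heads, with a fold of 0.959 (0.877 to 1.05, adjusted p = 0.713). For these 3 genes, the intervals after 5 exposures did not reach the folds seen after 1 exposure.

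tim (142154_at) had 208.2, 236.5 and 248.0 after 5 exposures, against 198.7, 218.5 and 243.5 in naive heads, and its fold was 1.07 (0.942 to 1.22, adjusted p = 0.661). The first cwo probe set (151642_at) had 202.1, 239.5 and 280.1 after 5 exposures, against 224.2, 262.7 and 278.5 in naive heads, and its fold was 0.917 (0.827 to 1.02, adjusted p = 0.408). The five-exposure arrays of cwo were the most spread of its 3 groups, with an SD of 29.4. Their lowest arrays, replicates 1 and 2 at 207.3 and 202.1, lay below every naive array. Fold changes of the other members were 1.03 for per, 1.02 for cyc, 1 for Pdp1, 0.964 for cry, 1.08 for tim 151485_s_at and 0.932 for cwo 142602_at, with adjusted p between 0.292 and 0.98.

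**Figure D2:**
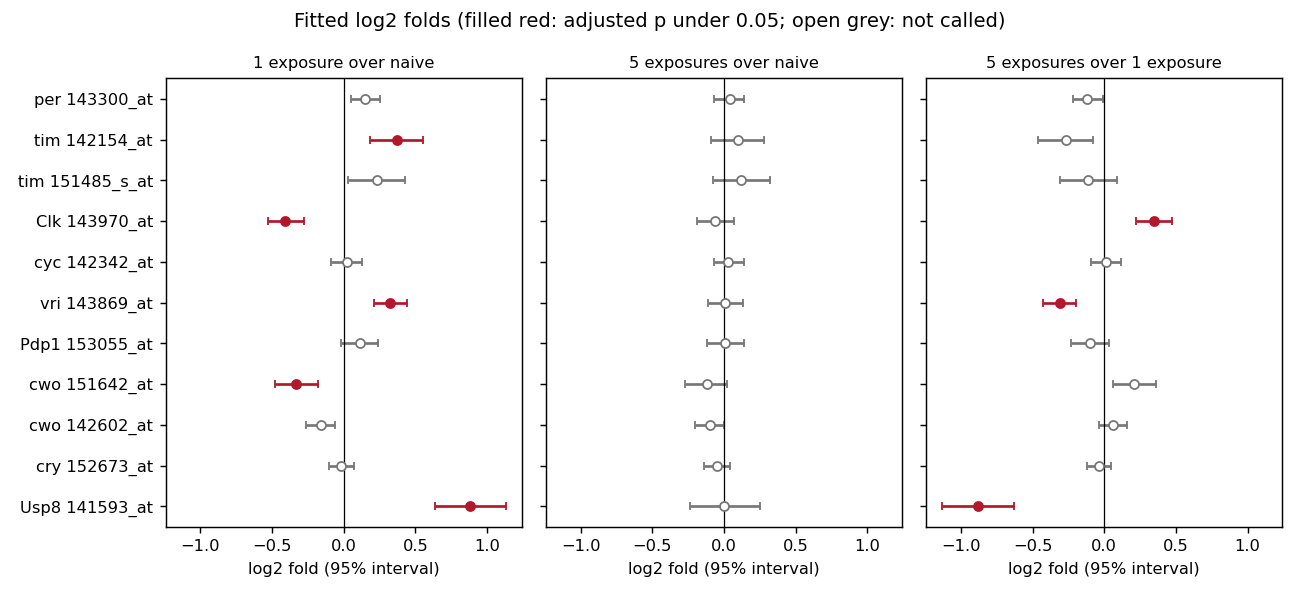
Fitted log2 fold and 95% interval of the 11 member probe sets in the 3 comparisons; filled red points passed an adjusted p of 0.05. After 1 exposure over naive, 5 probe sets are filled, after 5 exposures over naive none, and after 5 exposures over 1 exposure Usp8, vri and Clk are filled with the opposite sign to the first panel.

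The direct comparison of 5 exposures with 1 exposure tests the difference between the 2 ethanol groups. It uses the single-exposure arrays of the first comparison, so its folds are not independent of those above. Usp8 and vri were lower and Clk was higher after 5 exposures than after 1, and these were the 3 member probe sets called (27.3%, 1 higher and 2 lower), where 8.5% of all probe sets tested were called (3.74% higher and 4.77% lower). In each of the 3 the groups did not overlap, which held for 5.1% of all probe sets tested.

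The fold of Usp8 in five-exposure over single-exposure heads was 0.544 (0.458 to 0.645, adjusted p = 3.03e-05), with means of 101.9 ± 10.4 after 5 exposures and 191.1 ± 46.8 after 1 exposure (SD, n = 6 each). That of vri was 0.804 (0.741 to 0.873, adjusted p = 0.00074), with means of 195.5 ± 8.75 after 5 exposures and 243.6 ± 20 after 1. Clk had a fold of 1.27 (1.16 to 1.39, adjusted p = 0.000701), with means of 101.9 ± 7.53 after 5 exposures and 80.2 ± 6.42 after 1.

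tim and cwo, called after 1 exposure, were not called in this direct comparison. The fold of tim (142154_at) was 0.829 (0.729 to 0.943, adjusted p = 0.0677), and that of cwo (151642_at) was 1.15 (1.04 to 1.28, adjusted p = 0.0872). Both passed the threshold when single arrays were left out. tim did so without single-exposure replicate 5 (adjusted p = 0.0379) or replicate 6 (0.0213), and cwo without five-exposure replicate 1 (0.0414) or replicate 2 (0.0275). per had a fold of 0.923 (0.860 to 0.990, adjusted p = 0.186). Pdp1, cyc, cry, tim 151485_s_at and cwo 142602_at had folds between 0.926 and 1.04 and were not called.

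The members also varied from array to array within a group. Over the 18 arrays with each group's mean removed, 36 pairs of the 9 genes were compared, with a permutation test that kept arrays within their group (100000 permutations). No pair passed adjustment over the 36 by Pearson's r or by Spearman's rho, while 7 pairs by r and 8 by rho had an unadjusted p under 0.05. The highest was tim (142154_at) with Usp8, with r = 0.846 (permutation p = 0.00152, adjusted p = 0.0547) and rho = 0.761 (permutation p = 0.00403, adjusted p = 0.0844). Without single-exposure replicates 1 and 6, the arrays farthest from the median for tim alone, r was 0.783. Within single groups of 6 arrays it was 0.914 after 1 exposure, 0.374 after 5 exposures and 0.886 in naive heads. At the other tested tim probe set, 151485_s_at, r with Usp8 was 0.439 (adjusted p = 0.829). With 142154_at the pair passed adjustment with each array centred on its median (adjusted p = 0.0464), without single-exposure replicate 5 (0.0299) and without five-exposure replicate 4 (0.041), and in no other alternative, with adjusted p up to 0.12 when single arrays were left out.

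In naive heads the array with the highest Usp8, replicate 2 at 129.4, also had the highest tim (142154_at) at 243.5. In single-exposure heads, replicates 1 and 3 were the highest arrays for Usp8, vri and tim at 142154_at. They were also the highest for Pdp1, at 238.2 and 247.3, which was not called, but not for per, Clk, cyc, cwo or cry. At tim 151485_s_at the highest were replicates 3 and 2, at 131.2 and 106.9, and replicate 1 had 84.5. vri and Usp8 had r = 0.664 within groups (permutation p = 0.00842, adjusted p = 0.0983) and Pdp1 and cwo (151642_at) had r = 0.633 (permutation p = 0.00867, adjusted p = 0.0983). With the other cwo probe set, 142602_at, r with Pdp1 was 0.003 (adjusted p = 0.991). Clk and Usp8, which differed in opposite directions between single-exposure and naive heads, had r = -0.169 within groups (permutation p = 0.545). Arrays share their RNA input and normalization, and the part of these in the correlations was not tested.

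**Figure D3:**
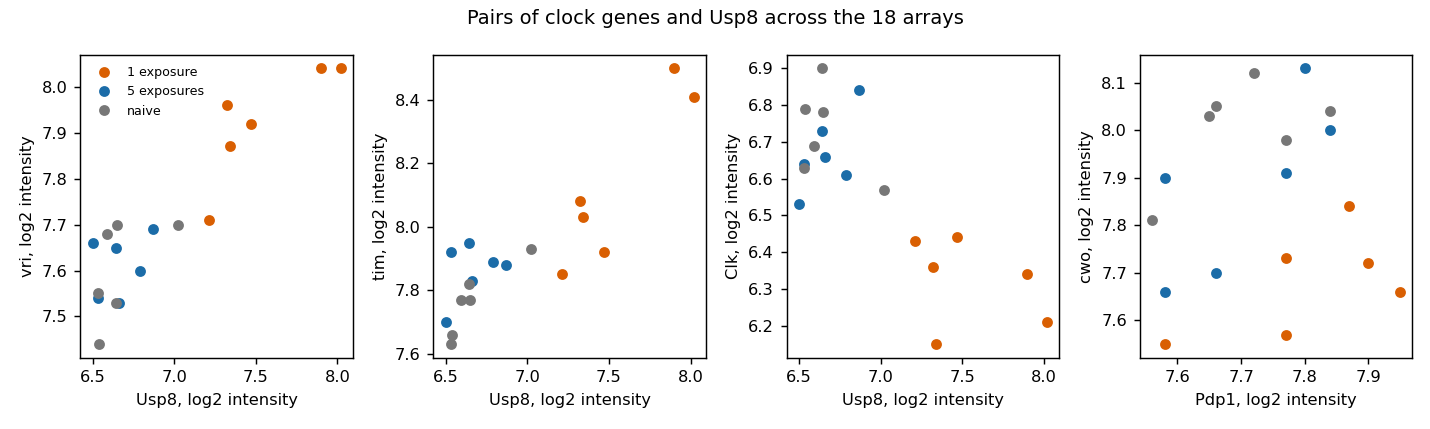
Log2 intensity of pairs of members on the 18 arrays (vri, tim and Clk against Usp8, and cwo against Pdp1, with tim at 142154_at and cwo at 151642_at), coloured by group. The single-exposure arrays lie apart from the other groups for Usp8, and single-exposure replicates 1 and 3 are the 2 points at the upper right of the panels of vri and tim.

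Across all 18 arrays, group differences included, the probe sets most like each called member were found among the 8303 tested with a single symbol. Pearson's r is given as a description. The closest to vri was Usp8, with r = 0.916 (0.664 with group means removed), and the closest to Usp8 was vri, followed by Trxr1, which encodes a thioredoxin reductase (r = 0.912, or 0.564), and CG3740 (r = 0.910, or 0.704). The closest to tim (142154_at) was P58IPK, a chaperone gene of the endoplasmic reticulum (r = 0.888), followed by Usp8 (r = 0.880) and Gp93, a gene of the same compartment (r = 0.872). With group means removed, these were 0.778 for P58IPK, 0.846 for Usp8 and 0.780 for Gp93.

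The closest to Clk was Achl, with r = 0.902 (0.665 with group means removed), followed by D2hgdh (0.877, or 0.474) and Svil (0.856, or 0.769). Clk had r = -0.796 with vri and -0.800 with Usp8, but with group means removed these were -0.246 and -0.169. The closest to cwo (151642_at) were CG15096 (0.836), lncRNA:CR32218 (0.829) and Egfr, the epidermal growth factor receptor gene (0.824). With group means removed, these were 0.589 for CG15096, 0.733 for lncRNA:CR32218 and 0.692 for Egfr.

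Other genes of the clock pathway were followed in 3 lists, of which 33 genes were tested. After 1 exposure 1 of the 33 was higher and 1 was lower than in naive heads (6.06%), after 5 exposures likewise 1 was higher and 1 lower than in naive heads (6.06%), and after 5 exposures over 1 exposure 1 was higher and 3 were lower (12.1%). These shares stood against 4.42%, 6.33% and 8.5% of all probe sets tested.

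Of the kinases, phosphatases and ubiquitin ligases that act on clock proteins, 7 genes were tested and none was called in any of the 3 comparisons (limma, with 1, 0 and 0 at an unadjusted p under 0.05). They included dco (153528_at), the Doubletime kinase that phosphorylates PER, with folds of 0.964 after 1 exposure over naive (adjusted p = 0.845) and 1.02 after 5 exposures over naive (adjusted p = 0.891). Of 15 clock input genes, cofactors and RNA regulators, none was called after 1 exposure over naive (2 at an unadjusted p under 0.05). Pdf (143977_at), the neuropeptide of the ventral clock neurons, had folds of 1.02 after 1 exposure (adjusted p = 0.83) and 1.04 after 5 exposures (adjusted p = 0.661), each over naive. Lk6 (142794_at), a kinase gene, was the 1 called of this list, at 1.17 after 5 exposures over naive (1.07 to 1.27, adjusted p = 0.0282). Its call was lost in 9 alternative settings, up to an adjusted p of 0.0745, and another probe set of Lk6 had a fold of 1.06 (adjusted p = 0.819). At 142794_at the fold of Lk6 after 1 exposure over naive was 1.13 and was not called (adjusted p = 0.121). Those groups did not overlap, which held for 3.01% of all probe sets tested. After 5 exposures over 1 exposure its fold was 1.03 (adjusted p = 0.783). sgg and to were on the lists but had no probe set of a single symbol.

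Of 11 transcripts reported to cycle in fly heads, Achl (147202_at, achilles) was lower and Cyp6a21 (142190_at), a cytochrome P450 gene, was higher after 1 exposure than in naive heads. Achl had 97.5 to 129.7 on the single-exposure arrays, against 136.6 to 172.8 on the naive arrays, a fold of 0.747 (0.675 to 0.826, adjusted p = 0.00049). Cyp6a21 had 121.9 to 146.9 after 1 exposure, against 86.9 to 113.7 in naive heads, a fold of 1.30 (1.17 to 1.44, adjusted p = 0.00224). Neither gene's groups overlapped. Neither was called after 5 exposures over naive (0.934 with adjusted p = 0.541 for Achl and 1.06 with adjusted p = 0.641 for Cyp6a21), and both were called after 5 exposures over 1 exposure, at 1.25 (adjusted p = 0.00397) for Achl and 0.817 (adjusted p = 0.0117) for Cyp6a21.

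The photoreceptor channel gene trpl (143554_at) behaved otherwise. It had 2693 to 2927 after 1 exposure, against 2425 to 2678 in naive heads, groups that did not overlap, with a fold of 1.12 just outside the threshold (adjusted p = 0.0518) that passed it in 9 alternative settings. After 5 exposures it had 1936 to 2458 and was lower than in naive heads (fold 0.852, 0.796 to 0.913, adjusted p = 0.00355, or 0.0545 with quantile normalization), and lower than after 1 exposure (0.760, 0.710 to 0.814, adjusted p = 7.04e-06). Slob (152682_at), which encodes a binding protein of the Slowpoke potassium channel, was lower after 5 exposures than after 1 (0.837, adjusted p = 0.00149), while another probe set of Slob (145967_at) had a fold of 1 and was not called.

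**Figure D4:**
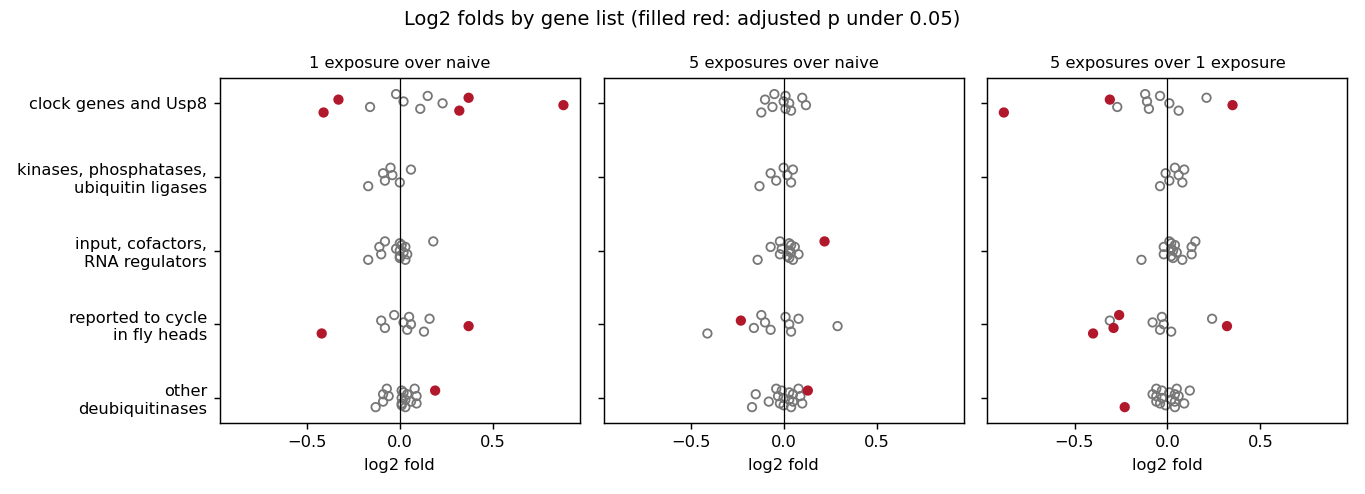
Log2 fold of each tested clock gene or Usp8 probe set and of each tested gene of the other lists in the 3 comparisons; filled red points passed an adjusted p of 0.05. In the first panel the clock genes and Usp8 span -0.41 to 0.88 with 5 of 11 filled, while none of the 7 kinases, phosphatases and ligases and none of the 15 input genes is filled. Achl and Cyp6a21 are filled among the 11 transcripts reported to cycle, and Usp10 among the 18 other deubiquitinases. Of all probe sets tested, 4.42% were called in this comparison.

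Usp8 was also set against the other deubiquitinases, of which 18 genes were tested. Over all probe sets tested, 4.42% were called after 1 exposure over naive and 6.33% after 5 exposures over naive. The share was 8.5% after 5 exposures over 1 exposure. After 1 exposure over naive, Usp10 (142762_at) was the 1 called, at 1.14 (adjusted p = 0.00425), and the log2 folds of the 18 had a median of 0.02, where the log2 fold of Usp8 was 0.88. A further Usp10 probe set (151677_at) was higher by a fold of 1.24 (adjusted p = 6.71e-05), and another (147948_at) was not called. After 5 exposures over naive Usp10 was again the 1 called (1.09, adjusted p = 0.0488), a call that was lost in 17 alternative settings, up to an adjusted p of 0.12. After 5 exposures over 1 exposure, Usp15-31 was lower (147887_at, 0.851, adjusted p = 0.0384), a call lost in 13 alternative settings and not made at its second probe set (1.09, adjusted p = 0.565). Usp10 was also lower in this comparison at 151677_at (0.888, adjusted p = 0.0154), the probe set called higher after 1 exposure. It was not called at 142762_at (0.96, adjusted p = 0.48) or 147948_at (0.978, adjusted p = 0.847).

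Markers of cell types were compared beside these results. After 1 exposure over naive, none of 7 photoreceptor, 7 neuronal, 7 muscle and 4 clock neuron peptide genes was called, 1 of 8 glial genes was lower and 1 of 9 fat body genes was higher. In this comparison 4.42% of all probe sets tested were called, so that lists this short say little by their counts. Summed over the tested photoreceptor genes, intensities ran from 18208 to 19646 after 1 exposure and from 17015 to 19185 in naive heads. For glia the sums were 5067 to 5645 after 1 exposure and 5481 to 6137 in naive heads. The muscle genes had a median log2 fold of -0.20, the largest shift of the 6 marker lists after 1 exposure, with 4 of 7 at an unadjusted p under 0.05 and sums of 9919 to 11655 after 1 exposure and 9373 to 13655 in naive heads. The sums of the clock neuron peptide genes overlapped, at 1027 to 1138 after 1 exposure and 1018 to 1141 in naive heads.

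Muscle genes were the marker list that moved most after 5 exposures. All 7 were lower than in naive heads (median log2 fold -0.50), with sums of 7101 to 9805 after 5 exposures and 9373 to 13655 in naive heads, and 5 of 7 were lower than after 1 exposure. In the comparison of 5 exposures with 1, 8.5% of all probe sets tested were called. Also after 5 exposures over naive, 3 of 9 fat body genes and 1 of 7 photoreceptor genes were higher, and 1 of 8 glial genes was lower. None of 7 neuronal and 4 clock neuron peptide genes was called, where 6.33% of all probe sets tested were called. On the array's 18S ribosomal RNA control, the log2 ratio of the 3′ to the 5′ probe set averaged -1.99 ± 0.23 after 1 exposure, -2.13 ± 0.60 after 5 exposures and -2.92 ± 0.44 in naive heads (SD, n = 6 each), and the single-exposure and naive arrays did not overlap. The same ratio for actin averaged 2.18 ± 0.12 after 1 exposure, 2.21 ± 0.15 after 5 exposures and 2.01 ± 0.08 in naive heads, with overlapping arrays. For GAPDH it averaged 1.30 in all 3 groups. The part of cell makeup and RNA quality in the clock gene results was not tested.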

How the data were processed

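Per the labels, biotin-labelled cRNA from 6 µg of head RNA was hybridised to 1 array per sample. The deposited table gives linear intensities, 1 for each of the probe sets on an array, which the authors had summarised and scaled to each other. The sources used here do not name the software, and there are no detection calls, so that low values could not be told from absent transcripts.

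Lower intensities were raised to a floor of 57.8, the 20th percentile over all arrays, and log2 was taken. The 44 control probe sets and those with a mean log2 below 6.42 (an intensity of 85.8) were left out, leaving 9317. Gene symbols came from the platform annotation, with older symbols updated through gene identifiers. With limma 3.58.1 under R 4.3.3, lmFit and eBayes fitted 1 model of the 3 groups to the 18 arrays (15 residual degrees of freedom), and p-values were adjusted by Benjamini-Hochberg over all probe sets tested, two-sided. The fit was tested on simulated data. Correlations and permutation tests used Python 3.11.15 with scipy 1.17.1. The labels name the samples of a group biological replicates, and their number limits the precision.

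The members, lists and tests were chosen with earlier results of these data known. All members were named, and of the other lists those called in any comparison, at most 6 a list, and always Pdf, dco, sgg and to. A gene with several probe sets was represented in the lists by the one with the highest mean. For each called member the 3 most alike genes by Pearson's r were named. The alternatives tried were median centring, quantile normalization, a stricter filter on low values or none, a pseudocount of 16 in place of the floor, a lower floor, a trended and robust prior, array weights, only the 2 groups compared, leaving out each array in turn, and a replicate block.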

Additional observations from a re-analysis of the deposited data

Results flagged for a closer look

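Among 60 sets of 6 arrays (1 probe set in 1 group), 3 had an array whose gap to the next, divided by the range of the group, exceeded Dixon's 95% critical value, and chance gives about 1 in 20. For Usp8, naive replicate 2 was the highest naive array at 129.4, with the next at 100.1, and it still lay below all 6 single-exposure arrays. For Lk6, single-exposure replicate 3 was highest at 1374, with the next at 1317. For Usp10, single-exposure replicate 5 was lowest at 355.3, with the next at 381.9.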

How the results depend on the processing

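Of 915 results on members under alternative settings, 877 kept their direction and side of the threshold, 1 call was lost (tim without a filter, above), 7 were gained and 30 changed sign, none of them while called. The 8 called folds of members kept 219 of 220 calls. Called member probe sets numbered 5 to 6 after 1 exposure over naive, 0 to 0 after 5 exposures over naive and 3 to 4 after 5 exposures over 1 when each array was left out in turn. A stricter filter at the median tested 8 member probe sets, without Clk, Usp8 and the second tim probe set, and called 3 after 1 exposure over naive and 1 after 5 exposures over 1, where fewer probe sets were tested. Called genes of the other clock lists after 5 exposures over naive numbered 1 with quantile normalization, 1 with no filter and 1 to 3 with single arrays left out, and the cause was not tested. Correlated pairs called numbered 1 with median centring and 0 to 1 with single arrays left out, against 0.

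Signs that changed belonged to folds near 0. After 5 exposures over naive, the log2 fold of Usp8 was -0.00 with quantile normalization, -0.00 with median centring and -0.04 with array weights, that of vri -0.01 and that of Pdp1 -0.02 with array weights. With single arrays left out, it ran from -0.04 to 0.07 for Usp8, -0.02 to 0.03 for vri, -0.02 to 0.03 for Pdp1 and -0.00 to 0.07 for dco. After 1 exposure over naive it ran from -0.01 to 0.04 for cyc and -0.03 to 0.00 for cry, and after 5 exposures over 1 from -0.00 to 0.04 for cyc. The deviations of same-numbered arrays had r from -0.177 to 0.402 for single-exposure and naive arrays, -0.240 to 0.446 for five-exposure and naive arrays and -0.054 to 0.520 for five-exposure and single-exposure arrays. In these, 2, 1 and 3 of 6 arrays correlated best with their own number, so that the numbers were not taken as pairs. With a replicate block, 5 member probe sets were called after 1 exposure over naive, 0 after 5 exposures over naive and 3 after 5 exposures over 1. The single-exposure arrays of Clk, at 71.1 to 86.8, had a mean log2 of 6.32. This was under the 6.42 (an intensity of 85.8) at which probe sets were filtered. Without detection calls the background under such values is unknown.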
